A study of Sus scrofa with 2 samples.

Results

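The Wnt ligands, their receptors and their secreted inhibitors were described in the cochlear stria vascularis (SV) of Rongchang pigs with and without 1 intact allele of Mitf. Members were taken by name alone, as every gene called WNT, FZD, SFRP or DKK with a number, together with WIF1, FRZB, LRP5, LRP6, LEF1, TCF7, AXIN2 and NOTUM. This gave 40 of the 27622 features measured, namely 18 ligands, 10 receptors, 9 secreted inhibitors and 3 genes that act in the nucleus or report on the pathway. WNT6, FZD1, FZD8, SFRP4 and NOTUM had no feature under their names and were not analysed here. Wnt proteins are secreted, lipid-modified signals that bind Frizzled receptors on neighbouring cells. With the co-receptors LRP5 or LRP6, this stops the destruction of beta-catenin, which then enters the nucleus and switches on genes with LEF1 or a TCF protein, whereas other Wnt proteins act through Frizzled without beta-catenin, for example on cell polarity and movement. The pathway is known for drawing pigment cells out of the neural crest, and LEF1 with beta-catenin is a known activator of the promoter of MITF-M, the melanocyte form of Mitf.

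RNA-seq covered 2 libraries, 1 from a heterozygous pig (Mitf R/r) and 1 from a homozygous mutant (Mitf r/r). The r allele carries insertions in the M-promoter of MITF, r/r animals are deaf and lack pigment, and the R/r control carries the r allele too, with no R/R library to compare. The labels give postnatal day 1 for both animals and the study's text an embryonic stage, so the stage is uncertain. The tissue was the lateral wall of the cochlea, a mixture of the marginal, intermediate and basal cells of the SV with whatever was dissected alongside, and in such bulk RNA fewer cells of a type and less RNA per cell cannot be told apart. The study also used electron microscopy of prenatal SVs and marker genes. From these it states that intermediate cells remained in r/r SVs at the embryonic stage, and it assigns the differences to the Mitf mutation. That was not tested here.

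The values are RPKM, read numbers divided by exon length and by library depth. Because the scale is per length, levels of different genes can be roughly compared on it, but not safely where the exon model is very short. Differences are log2 ratios of the homozygous over the heterozygous value with no pseudocount, and a gene was compared when it was above 0 in both libraries and reached 1 RPKM in at least one. Reads were worked out from the RPKM values with fitted library totals of 15829244 (R/r) and 14258672 (r/r). Each ratio has an exact 95% Clopper-Pearson interval on those reads, which covers counting error only. With 1 library per genotype there was no test and no replicate check, and each difference is one between 2 libraries, not between genotypes. Across the 16331 genes compared, the median log2 ratio was -0.02. The MITF feature of the highest level (ENSSSCG00000011513) had 51.7 RPKM in the heterozygous library and 37.8 RPKM in the homozygous library. The other features named MITF had 11.9 and 8.36 RPKM, and 10.1 and 7.27 RPKM. The study states that gene values cannot separate MITF-M from other forms, and it reports a larger decrease for the M-exon alone. The 12 melanocyte and intermediate cell markers found summed to 321 and 14.4 RPKM, of which DCT alone had 171.5 and 1.19 RPKM. OCA2 had 2.47 and 2.54 RPKM, and TYRP1 had 1 read in each library. MLANA was at 0 in the homozygous library, but had only 4 reads in the heterozygous library, and its interval reached up to 0.75. The marginal cell markers KCNE1 and ESRRB and the fibrocyte marker COCH were present in both libraries. Of 7 markers of the organ of Corti and other epithelium found, the hair cell genes ATOH1 and POU4F3 were below 1 RPKM in both libraries, the hair cell gene MYO7A had 1.46 and 0.902 RPKM, and the tectorial and epithelial genes TECTA, OTOG and EPYC were at 15.9, 10.6 and 1676 RPKM in the heterozygous library.

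Wnt members accounted for 0.179% of reads in the heterozygous library and 0.183% in the homozygous library. The member with the highest level was FRZB, at 160.1 RPKM in the heterozygous SV, followed by the receptor FZD9 at 154.1 RPKM and the ligand WNT5B at 93.5 RPKM. These held the first 3 places in the homozygous SV as well. In both SVs 17 members had at least 10 RPKM and 2 had at least 100 RPKM. Another 5 members were below 1 RPKM in both libraries but above 0 in at least one, and 6 were at 0 in both, so 29 members could be compared.

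**Figure D1:**
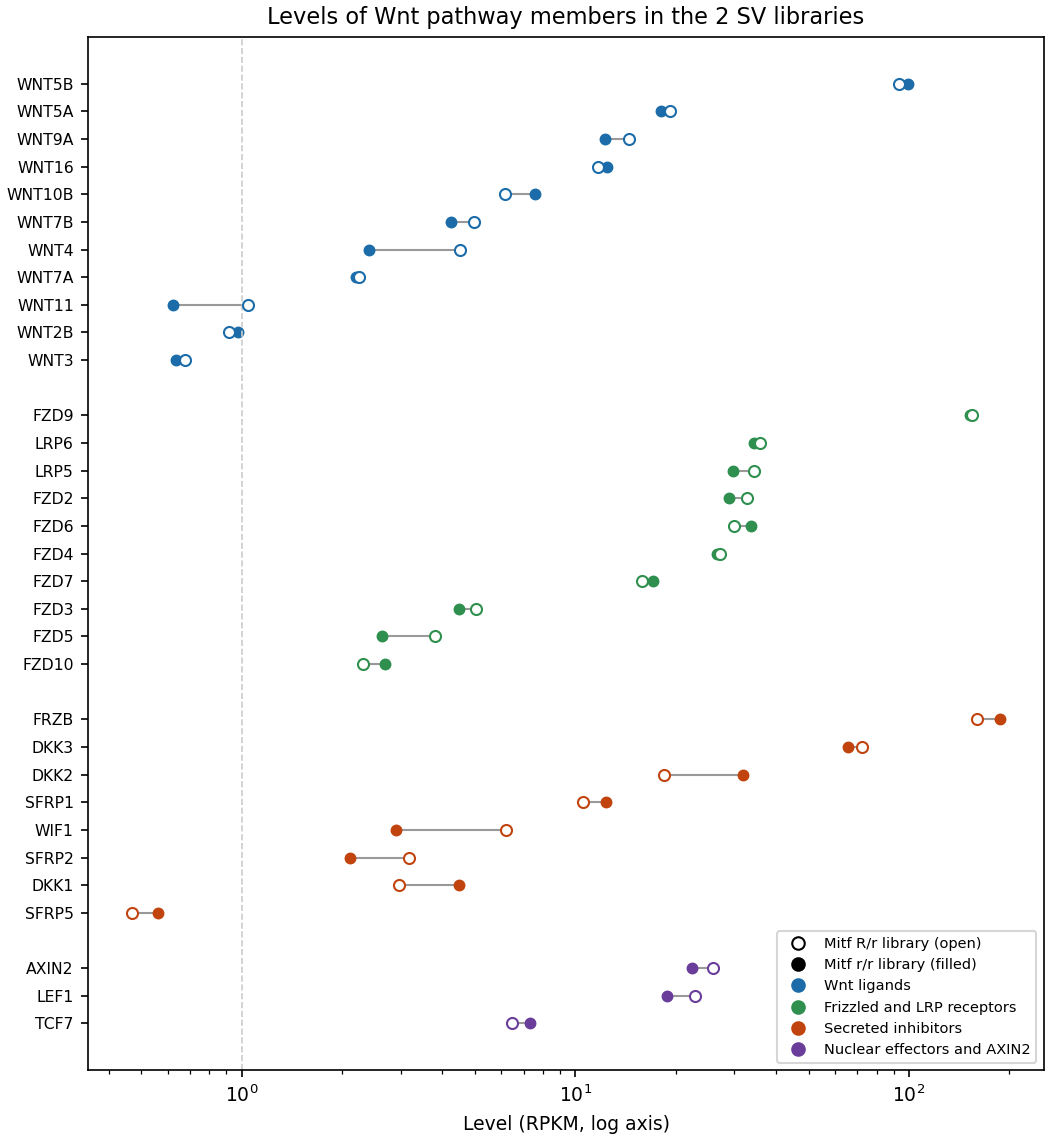
Level of each Wnt member above 0 in both libraries, in RPKM on a log axis, with the R/r library as an open circle, the r/r library as a filled circle and a line joining them. The dashed line marks 1 RPKM. Most pairs of circles lie close together, and the longest lines belong to WIF1, WNT4, WNT11 and DKK2.

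Most members had like levels in both SVs. Of the 29 compared, 18 were lower in the homozygous library and 11 higher, with a median log2 ratio of -0.05. The study's fold threshold was used here without the p values that its list gives. WIF1 alone was at least 2-fold lower, and no member was at least 2-fold higher. Of all genes compared, 2.2% and 1.78% passed that threshold in the same directions. WIF1 is not on the study's own list of 2-fold genes. At 1.5-fold, WIF1, WNT4, WNT11 and SFRP2 were lower and DKK2 and DKK1 higher, beside 6.31% and 4.53% of all genes. The interval lay wholly below 0 for 7 members and wholly above 0 for 5, which is 24.1% and 17.2% of the members beside 14.3% and 11.1% of all genes compared. Rescaled to TPM, which makes the values of each library sum to the same total, the numbers were 11 and 4. Members lower in the homozygous library then made up 73.3% of the intervals off 0 in place of 58.3%. TPM moved the log2 ratio of every gene by -0.04, and the shares of all genes compared were not computed under it. The members were read about as deeply as other genes, at a median of 455 reads against 431 for all genes, and the median size of their log2 ratio, whatever its sign, was 0.21 against 0.15. Among the 10 members with at least 1000 reads, none had a log2 ratio larger in size than 0.27.

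**Figure D2:**
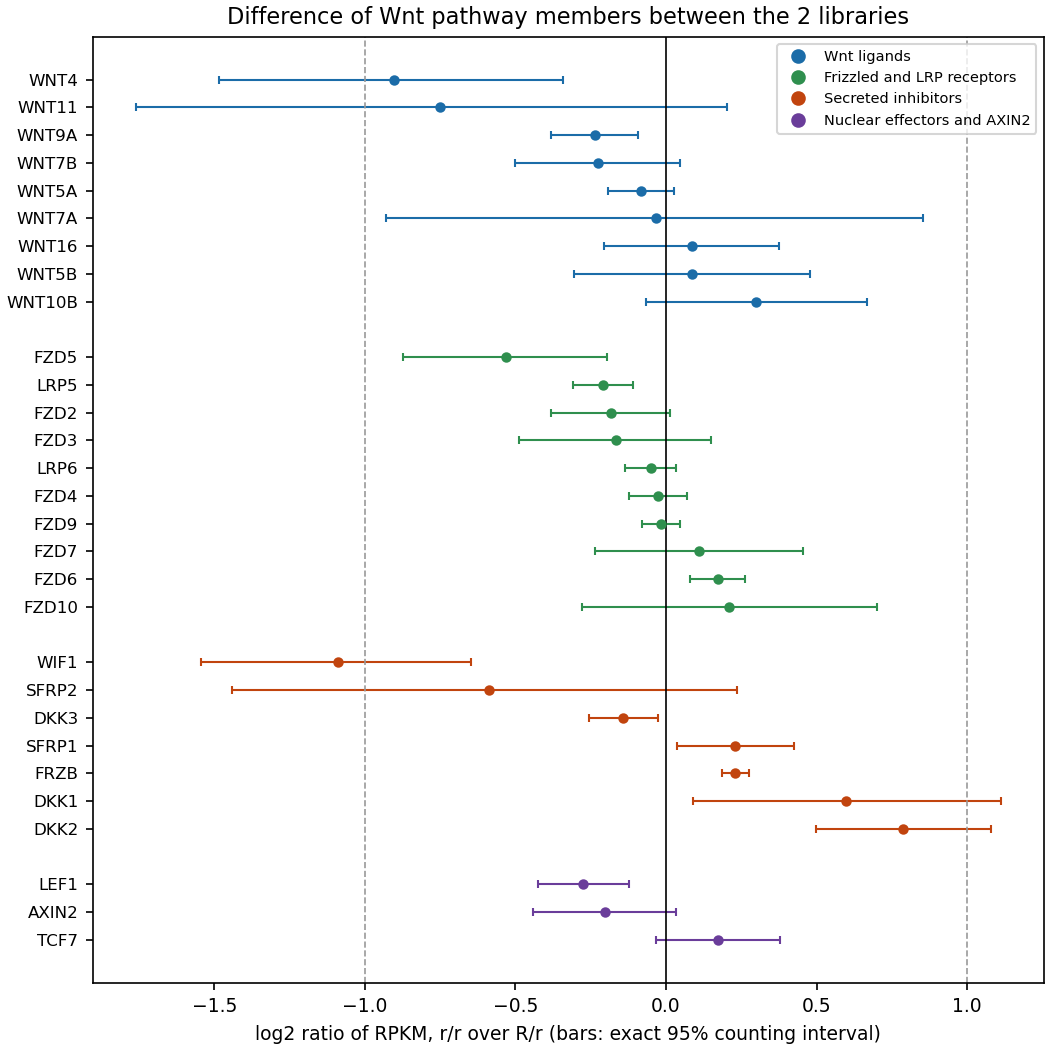
Difference of each compared member between the libraries, as the log2 ratio of RPKM (r/r over R/r), grouped by role and sorted within a role. Bars are exact 95% counting intervals, the solid line marks no difference and the dashed lines 2-fold. WIF1 alone lies past a 2-fold line, and its interval crosses that line. The inhibitors spread to both sides of 0.

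The ligand pool was made up largely of the WNT5 pair. WNT5B (ENSSSCG00000000759), which like its close relative WNT5A is known mainly for signalling without beta-catenin, had 93.5 RPKM in the heterozygous SV and 99.3 RPKM in the homozygous SV, 58.6% and 61.8% of the summed level of all ligands. Its log2 ratio was 0.09 (95% interval -0.31 to 0.48). WNT5A (ENSSSCG00000029852) had 19.2 and 18.1 RPKM, a log2 ratio of -0.08 (-0.19 to 0.03). The pair held 70.7% of the ligand level in the heterozygous SV and 73.0% in the homozygous SV, with WNT5B 4.88 and 5.49 times the level of WNT5A. The reads found for WNT5B, 114 and 109, are the smallest that give its values, so its interval can be too wide. They correspond to an exon model of only 77 bases, shorter than a single read of the study. If that length is the true one, the level of WNT5B is uncertain. The ligand shares, sums and ratios that include it are then uncertain too.

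Next came WNT9A, a ligand known from joints and the skeleton, and WNT16, known from cortical bone. WNT9A (ENSSSCG00000024671) had 14.5 RPKM in the heterozygous library and 12.3 RPKM in the homozygous library. Its log2 ratio of -0.24 had an interval below 0 (-0.38 to -0.09). WNT16 (ENSSSCG00000016617) had 11.7 and 12.4 RPKM, a log2 ratio of 0.08 (-0.21 to 0.38) that could not be told from no difference at this depth.

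A further 3 ligands with lower levels can each act through beta-catenin. WNT10B (ENSSSCG00000000182) had 6.15 RPKM in the heterozygous SV and 7.57 RPKM in the homozygous SV, a log2 ratio of 0.30 (-0.07 to 0.67). WNT7B had 4.97 and 4.25 RPKM, and WNT7A had 2.26 and 2.20 RPKM. The intervals of these 3 ligands held 0.

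The ligands furthest apart between the SVs were WNT4 and WNT11. WNT4 (ENSSSCG00000003521), a ligand needed for the formation of kidney tubules and the ovary, had 4.51 RPKM in the heterozygous SV and 2.41 RPKM in the homozygous SV, from 83 and 40 reads. The level in the homozygous SV was thus 0.535 of that in the heterozygous SV, a log2 ratio of -0.90 (-1.48 to -0.34). A ratio as low or lower was found in 2.75% of all genes compared, and in 0.882% of the 12131 read at least as deeply. Genes read more deeply have less counting error, which by itself lowers the second share. Such shares are given here and below only for members with large ratios, and they are not tests. WNT11 (ENSSSCG00000022347), a ligand known for directing cell movement, had 1.05 and 0.622 RPKM, but with 28 and 15 reads its log2 ratio of -0.75 had an interval that reached past 0 (-1.76 to 0.20). A second, unnamed feature (ENSSSCG00000026855), annotated with the same protein accession as WNT11, had 2 reads in the heterozygous library and 9 in the homozygous library, and with both features added the log2 ratio was -0.17 (-1.01 to 0.65). Over the 9 ligands compared the median log2 ratio was -0.08, and the summed level of all ligands was 159.5 RPKM in the heterozygous SV and 160.7 RPKM in the homozygous SV.

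The other ligands were at or near 0. WNT2B had 0.918 and 0.975 RPKM, and WNT3 had 0.677 and 0.636 RPKM. WNT8A and WNT8B had 1 read each in the heterozygous SV and 0 in the homozygous SV, where a count of 0 allows a level of up to 0.161 and 0.212 RPKM. WNT1, WNT2, WNT3A, WNT9B and WNT10A had no reads in either library. Wnt genes lie in conserved pairs along the chromosomes, and in the gene order of RefSeq, from an assembly other than the one the reads were aligned to, 3 pairs that were both measured had no protein-coding gene between them. In each of these pairs 1 partner was read and the other was at 0 in both SVs, namely WNT9A beside WNT3A, WNT10B beside WNT1 and WNT3 beside WNT9B.

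**Figure D3:**
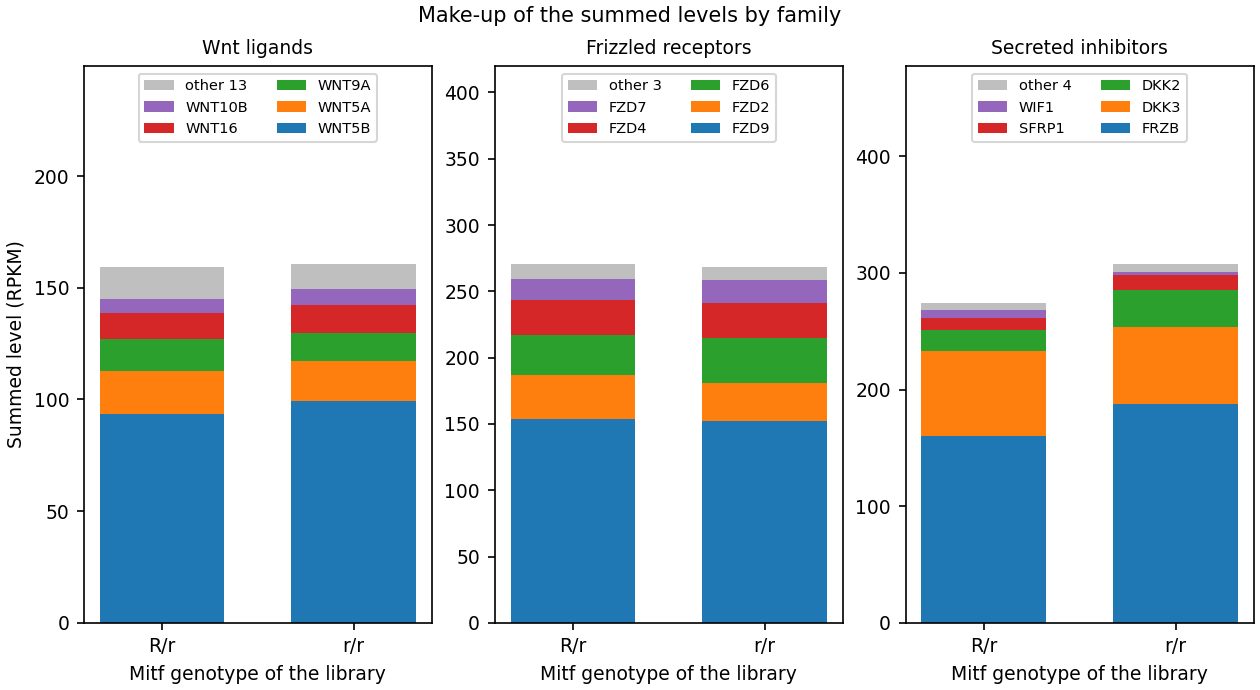
Summed level of the ligands, Frizzled receptors and secreted inhibitors in RPKM, 1 bar per library, with the members of the highest mean level drawn as segments and the rest of the family in grey. Each panel has its own axis from 0. The ligand and receptor bars have nearly the same height in both libraries, and the inhibitor bar is 274.5 RPKM in the heterozygous library and 307.8 RPKM in the homozygous library.

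All 10 receptors found passed the minimum level, and none of them was 1.5-fold apart. FZD9 (ENSSSCG00000023004), the Frizzled best known from bone and brain, had 154.1 RPKM in the heterozygous SV and 152.3 RPKM in the homozygous SV from 4331 and 3856 reads, and its log2 ratio of -0.02 had a narrow interval (-0.08 to 0.05). It made up more than the other Frizzled genes together, whose family summed to 270.8 RPKM in the heterozygous SV and 268.3 RPKM in the homozygous SV. FZD4 (ENSSSCG00000014920), which is needed for the capillaries of the retina and of the SV, had 27.1 and 26.6 RPKM, a log2 ratio of -0.02 (-0.12 to 0.07). FZD2 (ENSSSCG00000029838), which can bind WNT5A, had 32.7 and 28.8 RPKM, a log2 ratio of -0.18 (-0.38 to 0.01).

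FZD6 and FZD5 had intervals off 0, on opposite sides. FZD6 (ENSSSCG00000006052), which acts with FZD3 in the orientation of hair cells, had 29.9 RPKM in the heterozygous SV and 33.7 RPKM in the homozygous SV, a log2 ratio of 0.17 (0.08 to 0.26). FZD5 (ENSSSCG00000016140), a receptor for ligands of the beta-catenin branch, had 3.80 and 2.63 RPKM from 191 and 119 reads, a log2 ratio of -0.53 (-0.87 to -0.19). No other Frizzled gene lay further from 0, and FZD5 was still short of 1.5-fold. FZD7, FZD3 and FZD10 had 15.8, 5.05 and 2.32 RPKM in the heterozygous SV and 17.1, 4.50 and 2.68 RPKM in the homozygous SV, with intervals that held 0.

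The co-receptors LRP5 and LRP6, which pass the signal on to beta-catenin, had nearly equal levels. LRP6 (ENSSSCG00000000625) had 35.7 RPKM in the heterozygous SV and 34.4 RPKM in the homozygous SV, a log2 ratio of -0.05 (-0.13 to 0.03). LRP5 (ENSSSCG00000012885) had 34.4 and 29.8 RPKM, a log2 ratio of -0.21 (-0.31 to -0.11). LRP5 was lower in the homozygous library beyond counting error, the interval of LRP6 held 0 except under TPM scaling, and the difference between the pair was not tested. Together they summed to 70.1 and 64.2 RPKM. The median log2 ratio over the 10 receptors was -0.04.

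The secreted inhibitors had the widest spread of log2 ratios of the 4 roles, from -1.09 to 0.79, with members off 0 in both directions. Of the 7 compared, 4 had intervals above 0, 2 below, and 1 held 0, with a median log2 ratio of 0.23. The shares were 57.1% above and 28.6% below, beside 11.1% and 14.3% of all genes compared, and SFRP1, 1 of the 4 above, held 0 under TPM scaling and with the smallest reads that give its values. They work in different ways. FRZB and the SFRP proteins carry a Frizzled-like domain and bind Wnt proteins, WIF1 binds Wnt proteins through a domain of its own, and DKK1 and DKK2 block LRP5 and LRP6. DKK3 resembles them in sequence but is not known to act on these co-receptors in the same way.

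WIF1 (ENSSSCG00000030998) had the lowest ratio of all members. It had 6.19 RPKM in the heterozygous SV and 2.91 RPKM in the homozygous SV, from 144 and 61 reads. The level in the homozygous SV was 0.470 of that in the heterozygous SV, a log2 ratio of -1.09 (-1.54 to -0.65), so that the interval lay below 0 but not wholly past 2-fold. A ratio as low was found in 1.86% of all genes compared, and in 0.383% of the 10711 read at least as deeply.

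DKK2 (ENSSSCG00000009153) had the highest ratio. It had 18.5 RPKM in the heterozygous SV and 31.9 RPKM in the homozygous SV, from 164 and 255 reads, 1.73 times as much in the homozygous SV and a log2 ratio of 0.79 (0.50 to 1.08). A ratio as high was found in 2.82% of all genes compared, and in 0.459% of the 8282 read at least as deeply. In the order of members by level it stood at place 13 in the heterozygous library and at place 7 in the homozygous library, while WIF1 stood at places 19 and 23. The level of DKK2 was 2.98 times that of WIF1 in the heterozygous SV and 10.9 times in the homozygous SV.

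DKK1 (ENSSSCG00000010428) differed in the same direction as DKK2, at lower levels. It had 2.96 RPKM in the heterozygous SV and 4.47 RPKM in the homozygous SV, 1.51 times as much, from 58 and 79 reads, and its log2 ratio was 0.60 (0.09 to 1.11). Of all genes compared, 4.43% had a ratio as high. DKK3 (ENSSSCG00000013401), the family member with the highest level, had 72.6 and 65.8 RPKM, a log2 ratio of -0.14 (-0.26 to -0.03). DKK4 had no reads in either library.

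FRZB (ENSSSCG00000016018), first found in cartilage, had 160.1 RPKM in the heterozygous SV and 187.8 RPKM in the homozygous SV, from 7619 and 8049 reads. Its log2 ratio of 0.23 (0.18 to 0.28) was 1.17-fold, a small difference whose interval lay clear of 0 at this depth. It made up 58.3% of the level of all inhibitors in the heterozygous SV and 61.0% in the homozygous SV. SFRP1 (ENSSSCG00000025822) had 10.5 and 12.3 RPKM and the same log2 ratio of 0.23 (0.04 to 0.42), but with the smallest reads, 71 and 75, the interval was -0.26 to 0.72. SFRP2 (ENSSSCG00000009004) had 3.17 and 2.11 RPKM from 35 and 21 reads, a log2 ratio of -0.59 (-1.44 to 0.23). SFRP5 was below the minimum level, with 0.469 and 0.560 RPKM. With FRZB as the main part, the summed level of the inhibitors was 1.72 times that of the ligands in the heterozygous SV and 1.92 times in the homozygous SV.

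**Figure D4:**
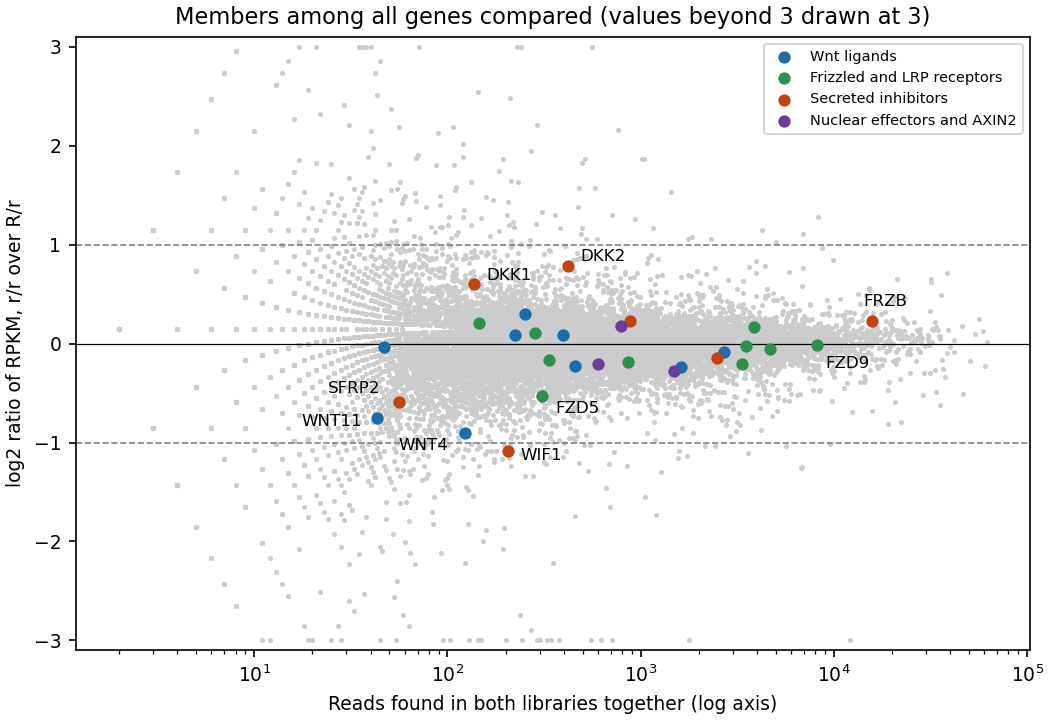
Log2 ratio of RPKM (r/r over R/r) against the reads found in both libraries together on a log axis, for all genes compared in grey and for the members in the colour of their role. Dashed lines mark 2-fold, and values beyond 3 are drawn at 3. WIF1, WNT4 and DKK2 lie at the edge of the grey cloud at their depth, and the deeply read FRZB and FZD9 lie near 0.

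LEF1 and TCF7, which carry beta-catenin to its target genes, and AXIN2, a target that feeds back on the pathway and serves as its usual readout, were all measured. AXIN2 (ENSSSCG00000017265) had 25.8 RPKM in the heterozygous SV and 22.4 RPKM in the homozygous SV, a log2 ratio of -0.20 with an interval that just held 0 (-0.44 to 0.03). LEF1 (ENSSSCG00000009148) had 22.8 and 18.9 RPKM, a log2 ratio of -0.27 (-0.42 to -0.12). LEF1 was thus lower in the homozygous library beyond counting error, by well under 1.5-fold. TCF7 (ENSSSCG00000030680) had 6.47 and 7.30 RPKM, a log2 ratio of 0.17 (-0.03 to 0.38).

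Of 22 other components of the pathway found at the cell surface or in secretion, 21 were compared, and none was 2-fold apart. The interval lay below 0 for 7 and above 0 for 1, which is 33.3% and 4.76% beside 14.3% and 11.1% of all genes compared, and the median log2 ratio was -0.11 beside -0.02. WLS, which carries Wnt proteins out of the cell, had 71.3 RPKM in the heterozygous SV and 72.2 RPKM in the homozygous SV. The Wnt receptor RYK had 59.4 and 62.3 RPKM, and the membrane-bound inhibitor APCDD1 had 56.5 and 50.7 RPKM. SOST, the inhibitor made by bone osteocytes that binds LRP5 and LRP6, had 7.91 and 4.28 RPKM, a log2 ratio of -0.89 (-1.48 to -0.32). LGR5, a receptor for R-spondins, had 0.635 and 1.08 RPKM from 13 and 20 reads, with an interval that held 0 (-0.31 to 1.90). The R-spondins, which amplify Wnt signals, differed in opposite directions. RSPO2 had 9.98 RPKM in the heterozygous SV and 14.2 RPKM in the homozygous SV, a log2 ratio of 0.51 (0.29 to 0.73). RSPO3 had 18.1 and 13.7 RPKM, a log2 ratio of -0.41 (-0.66 to -0.16). RNF43, a ligase that removes Frizzled from the membrane, had 27.0 and 20.9 RPKM, a log2 ratio of -0.37 (-0.48 to -0.26).

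Inside the cell, all 26 genes listed for the beta-catenin branch were compared, and 5 had intervals below 0 and 4 above. These shares, 19.2% and 15.4%, were near the 14.3% and 11.1% of all genes compared, and the median log2 ratio was -0.03. CTNNB1, the gene for beta-catenin, had 373 RPKM in the heterozygous SV and 409 RPKM in the homozygous SV, a log2 ratio of 0.13 (0.10 to 0.16). The kinase genes CSNK1A1 and CSNK1D, of the casein kinase family that marks pathway proteins with phosphate, had 116 and 82.6 RPKM in the heterozygous SV and 121 and 75.7 RPKM in the homozygous SV. CTNNBIP1, which keeps beta-catenin from binding TCF proteins, was the one gene 2-fold apart, with 1.92 and 4.12 RPKM from only 14 and 27 reads, a log2 ratio of 1.10 (0.12 to 2.14).

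The planar polarity branch, through which Frizzled proteins orient cells in a sheet without beta-catenin, held 11 compared genes, 1 with an interval below 0 and 3 above (9.09% and 27.3%, beside 14.3% and 11.1% of all genes compared). None was 1.5-fold apart and the median log2 ratio was -0.08. By the mean of both libraries DACT1, DAAM2 and ANKRD6 had the highest levels, at 30.4, 25.3 and 13.8 RPKM in the heterozygous SV and 24.8, 29.2 and 16.1 RPKM in the homozygous SV.

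Among 9 other known targets of beta-catenin, 4 had intervals below 0 and 2 above (44.4% and 22.2%, beside 14.3% and 11.1% of all genes compared), with a median log2 ratio of -0.23. TNFRSF11B, the decoy receptor osteoprotegerin that restrains bone resorption, had 287 RPKM in the heterozygous SV and 210 RPKM in the homozygous SV, a log2 ratio of -0.45 (-0.50 to -0.39). The secreted matrix protein gene CCN4 had 5.38 and 3.38 RPKM, a log2 ratio of -0.67 (-1.19 to -0.16). JUN, which many other signals also induce, had 22.6 and 41.2 RPKM, a log2 ratio of 0.87 (0.69 to 1.05). The cell cycle gene CCND1 had 23.7 and 20.1 RPKM with an interval that held 0.

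**Figure D5:**
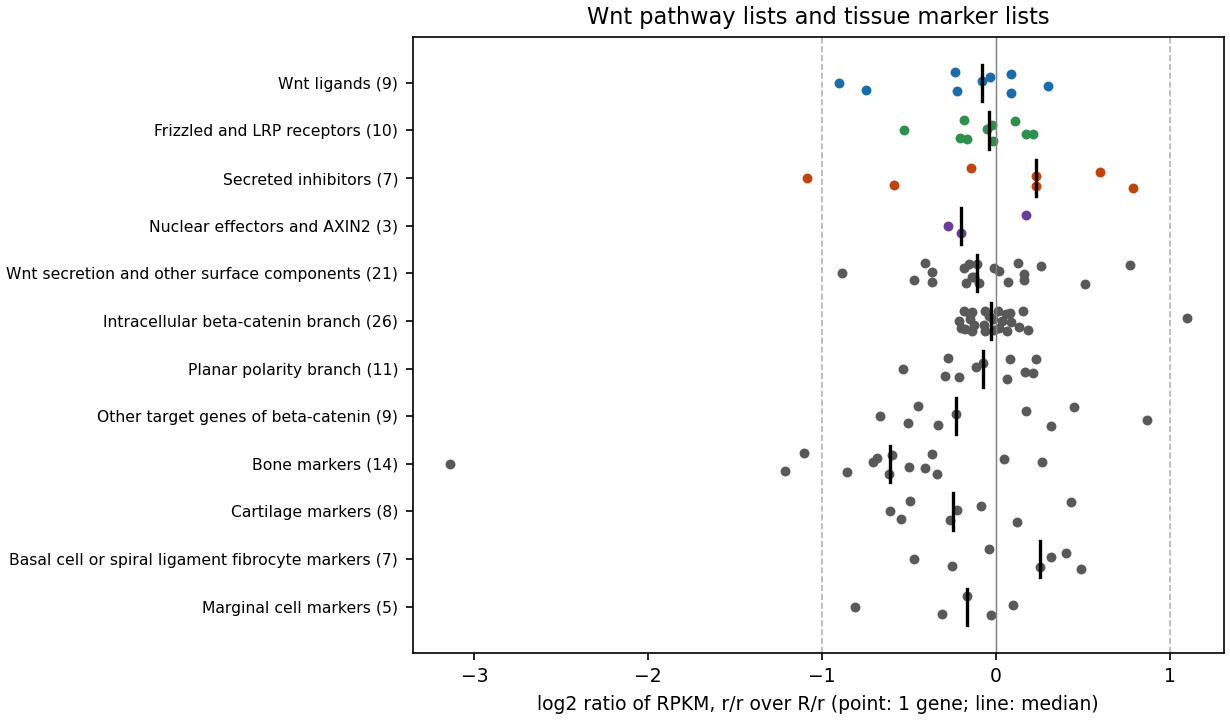
Log2 ratio of RPKM (r/r over R/r) of each compared gene in the Wnt lists and in 4 marker lists of the tissue, with the number of genes compared in brackets, 1 point per gene and a short line at the median. The Wnt lists have medians between -0.23 and 0.23, and the bone markers have a median of -0.61.

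Markers of neighbouring bone were mostly lower in the homozygous library. Of 14 bone markers compared, 11 had intervals below 0 and 1, SPP1, above (78.6% and 7.14%, beside 14.3% and 11.1% of all genes compared). The median log2 ratio was -0.61, and 3 markers were at least 2-fold lower in the homozygous library (COL1A1, DMP1 and MEPE), beside 2.2% of all genes compared. The summed level of the bone markers was 1093.7 RPKM in the heterozygous SV and 723.1 RPKM in the homozygous SV, and none was at 0. The defining bone gene IBSP had 431 and 268 RPKM. WIF1, WNT4 and SOST differed in the direction of these markers and DKK1, DKK2 and FRZB in the opposite one, and the part of bone in these results was not tested.

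The other tissue markers moved less evenly, apart from those of melanocytes. The counts below stand beside 14.3% of all genes compared with intervals below 0 and 11.1% above, and most of these lists are short. The 12 melanocyte and intermediate cell markers found had 9 of 10 compared genes with intervals below 0 and a median log2 ratio of -5.28. The exception was OCA2, at 2.47 and 2.54 RPKM, and TYRP1 and MLANA were not compared. The study reports that other melanocyte markers, among them KIT, S100 and MUM1, were still expressed in r/r SVs. Cartilage markers had 5 of 8 compared genes below and 1 above, with a summed level of 9286 RPKM in the heterozygous SV and 8486 RPKM in the homozygous SV. Marginal cell markers had 3 of 5 below and 1 above, summing to 1581 and 1166 RPKM. Basal cell and fibrocyte markers had 2 of 7 below and 4 above, with a median of 0.25 and sums of 9609 and 8135 RPKM. The median of this list and its summed level differed in sign because COCH, at 6826 and 4914 RPKM, makes up most of the sum. Endothelial and pericyte markers, among which FZD4 is known to act, had 2 of 7 below and 1 above and summed to 371.5 and 362.1 RPKM. Organ of Corti and other epithelial markers summed to 1708.5 and 2265 RPKM with 2 of 5 below and 2 above, muscle markers to 59.4 and 83.6 RPKM with 1 of 6 below and 2 above, and Schwann cell markers to 37.9 and 25.3 RPKM with 1 of 3 below and none above. The part of these cell types in the results for the Wnt members was not tested.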

How the data were processed

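The authors extracted RNA from cochlear lateral walls with an RNeasy Micro Kit, made TruSeq libraries, sequenced them as paired reads on a HiSeq 2000, filtered the reads, aligned them with TopHat 2.0.7 to Sscrofa 10.2 and deposited 1 table of RPKM values per gene. The counting program, the use of strand and the annotation are not given in the sources used here. Another 2 columns without headings, with values for 22 genes, were not used.

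From the deposited RPKM values, log2 ratios were computed without a pseudocount. Reads were recovered as the lowest pair of whole numbers from which both values and, where one was found, a whole gene length follow. Where no common factor up to 30 gave a whole length, the lowest pair that gives both values was kept. For very deeply read genes the digits do not fix the pair, and no larger factor was tried. The library ratio, 1.11, came from 681 low genes with equal reads. Library totals were chosen so that lengths of genes became whole, which held for 62.5% of the 3000 genes used (tolerance 0.03 bases), and reads were found for 20862 of 20862 features above 0. The true reads can be a multiple of these, which makes intervals too wide. A read on 1 kb is worth 0.0632 RPKM in the R/r library and 0.0701 RPKM in the r/r library, and the limit of a count of 0 is 3 reads. Gene names came from the table (34 members) and Ensembl names (DKK4, FZD2, LRP5, WNT10A, WNT11 and WNT5B). Where features shared a name, that of the highest mean level stood for it.

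The members and all gene lists were chosen with earlier results of these data known. All members are accounted for. Ratios are given for members 1.5-fold apart, with an interval off 0 or among the 5 of highest level in a role, and from other lists genes 1.5-fold apart and the 3 of highest level, with RSPO2, RSPO3 and RNF43 added after their values were seen. The steps were tested on simulated data, built only from features with a recovered whole length that was not very short. WNT5B and features without a whole length were therefore outside that test. Alternatives were pseudocounts of 0.1 and 1 RPKM, no minimum or a minimum of 5 RPKM, TPM, upper-quartile and median scaling, cut-offs of 1.5-fold and 4-fold, and names from the table alone. Added after seeing the data were the smallest reads for intervals, the intervals under each scaling, the second WNT11 feature and bone markers without DMP1. Sequences were not analysed here. Computations ran in Python 3.11.15 with scipy 1.17.1, numpy 2.4.6 and pandas 2.3.3, and plots in matplotlib 3.10.9.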

Additional observations from a re-analysis of the deposited data

Results flagged for a closer look

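The unnamed feature ENSSSCG00000026855, which carries the protein accession of WNT11 and was outside the list of named members, had 0.399 RPKM in the r/r library from 9 reads, above the 0.133 RPKM that a count of 0 allows there. In the R/r library it had 0.0798 RPKM from 2 reads, a log2 ratio of 2.32 (95% counting interval 0.05 to 5.57). The WNT11 feature itself was lower in the r/r library, and how reads were shared between the features was not tested.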

How the results depend on the processing

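The count of 1 member at least 2-fold apart became 0 with 1 RPKM added to both libraries, 6 at 1.5-fold, 0 at 4-fold and 0 where the whole interval had to lie beyond 2-fold. For the intracellular beta-catenin list, the count of 1 (CTNNBIP1) became 0 with 1 RPKM added, with a minimum of 5 RPKM, at 4-fold and where the whole interval had to lie beyond 2-fold. At 1.5-fold the surface components had 2 genes and the other targets 2, against 0 each at 2-fold. The 7 members with intervals below 0 became 11 under TPM scaling, which moved all log2 ratios by -0.04 and brought in AXIN2, FZD2, LRP6 and WNT5A. Of 196 values of single members under the alternatives, 0 left their interval, and the sign changed for FZD9 alone, from -0.02 to 0.0013 under median scaling. The scalings moved every log2 ratio by 0.018, 0.009 or -0.036, less than the narrowest half-width of 0.045, and a minimum level does not change a ratio. For those settings no value could leave its interval. The log2 ratio of WIF1 ranged from -1.12 to -0.88 and that of DKK2 from 0.75 to 0.81. The median of the inhibitors ranged from 0.19 to 0.25 and that of the receptors from -0.07 to -0.02, while the medians of the ligands (-0.12 to 0.09) and of the planar polarity branch (-0.11 to 0.08) crossed 0.

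No paired analysis was possible because each genotype had 1 library and no second one to pair. Counting intervals of members had half-widths from 0.05 to 0.98 on the log2 scale. Animals, dissection and library preparation cannot be told apart from genotype.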
